A study of Mus musculus with 36 samples.

Results

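The collagen chain genes of the mouse cochlea are described here, taken as the protein-coding genes of GENCODE M21 whose symbol is Col, a number, a and a number, with a mean count of at least 10 over the 36 libraries. All 44 such genes in the annotation were in the table of 39017 genes and all 44 passed, 0 falling under the minimum. Nearest to it was Col10a1, the type X chain of hypertrophic cartilage, with a mean count of 36.4 and a range of 2 to 194. The 44 genes comprised 11 fibrillar chains, 9 fibril-associated chains, 6 basement membrane chains of type IV, 6 beaded-filament chains of type VI, 4 transmembrane chains, 3 short-chain network chains, 2 multiplexins, 1 anchoring-fibril chain (Col7a1) and 2 others (Col26a1 and Col28a1).

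The RNA came from cochleae, the spiral organs of hearing, of 12 weeks old CBA/Sca mice that were either adrenalectomized (ADX), so that adrenal steroids such as corticosterone are lost, or labelled sham, as the surgical controls. Sampling ran in steps of 4 h, from CT04 (circadian time) through CT08, CT12, CT16 and CT20 to CT24. Each status had 3 libraries at each time, which makes 18 ADX and 18 sham libraries. The labels name no other treatment, and nothing in them says whether the 3 libraries of a group came from separate animals, so the p-values reflect only the spread among these libraries, which may be technical.

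Collagens are secreted proteins whose chains wind around one another into a rope-like helix, which needs hydroxylated proline and lysine, and which lysyl oxidases then cross-link outside the cell. Fibrillar types I, III and V build bone, ligament and connective tissue, and types II, IX and XI build cartilage and, in the cochlea, the tectorial membrane that lies over the hair cells. Type IV chains form the sheets of basement membranes around capillaries and under epithelia, including those of the stria vascularis, and type VI chains form beaded filaments beside them. The bone that encases the cochlea, the otic capsule, is rich in type I collagen.

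The libraries held between 20351081 and 28947793 counts in ADX and between 18999408 and 28995197 in sham. Values are given as CPM, the count of a gene scaled to the size of its library. Cochlear markers were present throughout: the 6 hair cell markers summed to between 166 and 223 CPM in ADX libraries and between 153 and 254 CPM in sham libraries. Bone was present too, with 10 osteoblast markers summing to between 2651 and 3340 CPM in ADX and between 2975 and 4741 CPM in sham, and none of the 10 was at 0. Sham CT20 replicates 2 and 3 stood apart with osteoblast marker scores of 0.91 and 0.73, where the score is the mean of centred log2 CPM, while the highest of the other 34 libraries had 0.19. Those 2 libraries also stood above all 34 others for 10 of the 44 collagen genes, and the share of all genes that did so was not computed. As their scores stood apart, the main comparisons of ADX with sham, and the collagen rhythms in sham, are also given without these 2 libraries. Over all genes, 162 of 22556 were called in the mean comparison with them and 6 of 23657 without them. In 3 ADX libraries skeletal muscle markers were high, and 5 libraries (2 ADX, 3 sham) held Gh, a pituitary transcript, at over 50 CPM. In bulk tissue, fewer cells of a type and less RNA per cell cannot be told apart.

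Collagen transcripts made up between 0.385 and 0.694% of counts in ADX libraries (median 0.476%) and between 0.434 and 0.924% in sham libraries (median 0.531%). Levels between genes are compared as CPM per kilobase of the longest protein-coding transcript. On that scale Col1a2, a type I chain, was highest with 202 ± 35.6 in ADX and 237 ± 66.9 in sham (SD, n = 18 each). Col11a2, a type XI chain of cartilage and tectorial membrane, had 131 ± 19.4 CPM per kilobase in ADX and 147 ± 30.5 in sham. Col1a1, the other type I chain, had 118 ± 27.3 CPM per kilobase in ADX and 145 ± 60.4 in sham. The gap between Col11a2 and Col1a1 was smaller than their SDs, so the order of these 2 neighbours was not resolved.

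The next 5 genes lay well under these, with means over all libraries of 47.6 CPM per kilobase for Col9a2, 36.1 for Col2a1, 29.9 for Col9a3, 27.7 for Col5a2 and 26.2 for Col27a1. Col2a1 encodes the main cartilage collagen, Col9a2 and Col9a3 encode type IX chains that decorate its fibrils, and Col27a1 encodes a fibrillar chain of cartilage. Genes at the lower end included Col6a4 with 0.34, Col6a6 with 0.35, Col17a1 with 0.38 and Col10a1 with 0.47 CPM per kilobase. Fibrillar chains accounted for 67.5 ± 2.69% of the summed level per kilobase in ADX and 70.4 ± 4.01% in sham (SD, n = 18 each), and fibril-associated chains for 14.8 ± 1.40% in ADX and 13.5 ± 2.31% in sham. Type IV chains contributed 4.78 ± 0.58% in ADX and 4.31 ± 0.54% in sham, and type VI chains 5.86 ± 0.79% in ADX and 5.26 ± 0.79% in sham. The order of genes depended on the length used. By the gene length deposited with the counts, Col1a1 (438) was above Col11a2 (283) and Col2a1 (115) above Col9a2 (100). Col5a2 (61.7) was then above Col9a3 (57.8), Col11a1 ranked 8 and Col27a1 9, and Col10a1 was lowest.

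Several chains that assemble together lie side by side in the genome. The type IV genes sit head to head in pairs: the start sites of Col4a1 and Col4a2 on chromosome 8 were 21 bases apart, those of Col4a3 and Col4a4 on chromosome 1 were 72 bases apart, and those of Col4a5 and Col4a6 on chromosome X were 1309 bases apart (GRCm38). Promoter windows of 300 bases, from 250 before to 50 after the start, came from RefSeq on GRCm38.p6 and were matched by symbol for 35 of the 44 genes. The windows below are shown for the shared Col4a1 and Col4a2 start, whose genes moved together across the day, for Col5a1, which was lower in ADX, and for Col1a2 and Col11a1, which varied closely with Col1a1 between libraries. Capitals mark CCAAT and GGGCGG on either strand, the letters of the CCAAT box and of the GC box.
Col4a1, chr8:11312777-11313076 (minus strand): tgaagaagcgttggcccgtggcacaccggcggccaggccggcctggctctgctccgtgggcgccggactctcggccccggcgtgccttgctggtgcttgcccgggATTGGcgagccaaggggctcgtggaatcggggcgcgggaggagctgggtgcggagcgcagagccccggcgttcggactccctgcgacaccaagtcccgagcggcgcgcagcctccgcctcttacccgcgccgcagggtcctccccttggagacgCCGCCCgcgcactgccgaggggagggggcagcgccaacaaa
Col4a2, chr8:11312555-11312854 (plus strand): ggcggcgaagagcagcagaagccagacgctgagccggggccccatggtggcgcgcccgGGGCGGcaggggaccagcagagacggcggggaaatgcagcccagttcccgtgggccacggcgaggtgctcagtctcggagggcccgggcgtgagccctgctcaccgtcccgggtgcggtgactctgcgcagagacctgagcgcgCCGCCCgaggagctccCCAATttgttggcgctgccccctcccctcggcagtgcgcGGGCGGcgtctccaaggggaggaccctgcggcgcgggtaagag
Col5a1, chr2:27886175-27886474 (plus strand): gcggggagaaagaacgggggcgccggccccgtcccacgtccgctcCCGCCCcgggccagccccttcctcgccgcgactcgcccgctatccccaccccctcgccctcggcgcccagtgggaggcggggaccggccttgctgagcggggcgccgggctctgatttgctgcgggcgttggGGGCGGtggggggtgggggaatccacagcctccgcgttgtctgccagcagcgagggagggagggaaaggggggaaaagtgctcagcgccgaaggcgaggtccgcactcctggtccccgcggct
Col1a2, chr6:4505368-4505667 (plus strand): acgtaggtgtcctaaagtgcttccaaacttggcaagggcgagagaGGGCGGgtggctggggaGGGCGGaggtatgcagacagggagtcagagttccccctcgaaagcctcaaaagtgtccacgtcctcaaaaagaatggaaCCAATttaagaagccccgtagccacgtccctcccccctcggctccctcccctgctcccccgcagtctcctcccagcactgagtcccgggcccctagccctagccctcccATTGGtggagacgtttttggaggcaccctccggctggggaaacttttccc
Col11a1, chr3:114030290-114030589 (plus strand): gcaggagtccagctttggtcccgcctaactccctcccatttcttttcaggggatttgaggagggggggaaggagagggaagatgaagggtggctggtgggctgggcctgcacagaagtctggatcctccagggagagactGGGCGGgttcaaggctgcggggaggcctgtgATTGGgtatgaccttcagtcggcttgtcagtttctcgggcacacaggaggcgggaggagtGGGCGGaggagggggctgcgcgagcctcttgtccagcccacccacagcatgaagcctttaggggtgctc

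The Col4a1 and Col4a2 windows shared 78 bases, read on opposite strands. GGGCGG was in the windows of 22 of the 35 collagen genes (62.9%), against 35.7% of all 32851 windows of that length in the table, and CCAAT was in 13 (37.1%), against 37.4% of all windows. TATAAA was in 5 windows (14.3%), against 13.6% of all. None of the 35 windows held CACGTG (the E-box) or TTATGTAA (a D-box), which were in 7.15% and 0.938% of all windows. None held the palindromic glucocorticoid element (0.00913% of all windows) or the heat shock element (0.603%). Both strands were searched, and these matches describe letters in the windows only.

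Averaging the 6 times asked which chains differed with the adrenal glands removed, whatever the hour. Of the 44 genes, 2 passed an adjusted p of 0.05, Col22a1 and Col5a1, and both were lower in ADX. Across all 22556 tested genes 0.718% passed, 0.372% lower in ADX. Col22a1 encodes a fibril-associated chain found at tissue junctions. Its level ran from 27.0 through a median of 36.0 to 54.6 CPM in ADX libraries and from 33.4 through 47.5 to 98.4 CPM in sham libraries. The ranges overlapped, and the mean was lower in ADX at each of the 6 times. Col22a1 averaged 37.5 ± 8.08 CPM in ADX and 51.6 ± 18.4 CPM in sham (SD, n = 18 each), and the log2 fold change was -0.43 ± 0.10 (SE; edgeR quasi-likelihood test, Benjamini-Hochberg adjusted p = 0.0410).

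Col5a1 encodes a type V chain that helps start type I fibrils and limits their width. Its level ran from 66.4 through a median of 78.3 to 92.7 CPM in ADX libraries and from 68.5 through 86.5 to 121 CPM in sham libraries. The ranges again overlapped, and ADX was higher at 1 of the 6 times. The means were 78.3 ± 6.60 CPM in ADX and 88.7 ± 15.5 CPM in sham (SD, n = 18 each), and the log2 fold change was -0.17 ± 0.04 (edgeR adjusted p = 0.0429). Both calls were close to the threshold. When each of the 36 libraries was left out in turn, Col22a1 passed in 18 fits and Col5a1 in 14, with the log2 fold change between -0.49 and -0.39 for Col22a1 and between -0.18 and -0.15 for Col5a1. Without sham CT20 replicates 2 and 3 the log2 fold change was -0.31 for Col22a1 (edgeR adjusted p = 0.185) and -0.13 for Col5a1 (edgeR adjusted p = 0.182), and 0 of the 44 genes passed.

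Among the 11 fibrillar genes 9 had a negative log2 fold change, with a median of -0.17, against a median of 0.00 over all tested genes. After Col5a1, the values were -0.38 ± 0.11 for Col11a1, -0.34 ± 0.10 for Col5a2, -0.30 ± 0.08 for Col24a1, a chain of forming bone, -0.25 ± 0.10 for Col1a1 and -0.21 ± 0.08 for Col1a2, none past the threshold (edgeR adjusted p from 0.0753 for Col24a1 to 0.222 for Col1a1). Col1a1 ran from 462 through a median of 657 to 1013 CPM in ADX and from 505 through 772 to 1866 CPM in sham. Without sham CT20 replicates 2 and 3, 8 of the 11 fibrillar genes had a negative value, with a median of -0.12. The 33 genes of other classes had 9 negative values, and 49.3% of all tested genes had one.

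Markers of several cell types also differed. All 10 osteoblast markers had a negative log2 fold change in ADX, with a median of -0.23, and 3 of them passed (Ibsp, Dmp1 and Ifitm5; 0.372% of all tested genes were called lower). Ibsp, which encodes bone sialoprotein, had a log2 fold change of -0.39, Dmp1, a mineralization protein of osteocytes, had -0.24 and Ifitm5, a bone-specific membrane protein, had -0.52. Without sham CT20 replicates 2 and 3 all 10 remained negative, with a median of -0.16, and 0 passed in edgeR, while all 10 had an unadjusted p under 0.05 (13.7% of all genes tested in that fit). The edgeR adjusted p was then 0.148 for Ibsp, 0.135 for Dmp1 and 0.188 for Ifitm5. The mean osteoblast score was -0.14 in ADX libraries and 0.14 in sham libraries, or 0.06 in the 16 sham libraries without those 2.

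Other marker lists were counted as well. All 6 osteoclast markers (median log2 fold change -0.25), all 6 erythroid markers (median -0.17) and all 8 neutrophil markers (median -0.18) had negative values. In edgeR 0 of them were called, and 1, 4 and 8 had an unadjusted p under 0.05, against 15.6% of all tested genes. The osteoclast markers Oscar, Ocstamp, Dcstamp and Calcr were low, averaging 0.28 to 0.77 CPM in ADX and 0.35 to 0.96 CPM in sham. Cochlear fibrocyte markers, from -0.12 (Coch) to -0.003 (Otos), and stria vascularis markers, from -0.08 (Atp1b2) to -0.05 (Kcnq1), were also all negative. So were the pituitary markers, from -1.28 (Gh) to -0.52 (Cga). Chondrocyte (-0.28 to 0.22), hair cell (-0.10 to 0.05) and tectorial and supporting cell markers (-0.12 to 0.06) were mixed. All 6 B lymphocyte markers were positive, with a median of 0.31, and Ighm, the immunoglobulin mu heavy chain gene, was called (0.33 ± 0.08; edgeR adjusted p = 0.0489). All 8 skeletal muscle markers were positive, with a median of 1.76 and 0 called, 6 having an unadjusted p under 0.05. Of the 5 tendon markers 1 was called, Thbs4, which encodes a thrombospondin of tendon and muscle. Thbs4 was lower in ADX (-0.55 ± 0.08, edgeR adjusted p = 0.0015). Tnmd was also negative (-0.17), while Scx (0.11), Mkx (0.09) and Kera (0.31) were positive. Without sham CT20 replicates 2 and 3, the median was -0.13 for osteoclast, -0.19 for erythroid and -0.15 for neutrophil markers. It was 0.28 for B lymphocyte, 1.78 for skeletal muscle and 0.08 for tendon markers. In that fit 4 of the 6 osteoclast, 3 of the 5 cochlear fibrocyte and all 6 stria vascularis markers were negative. The value there was 0.31 for Ighm and -0.45 for Thbs4. The part of tissue makeup, bone included, in the fibrillar differences was not tested.

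**Figure D1:**
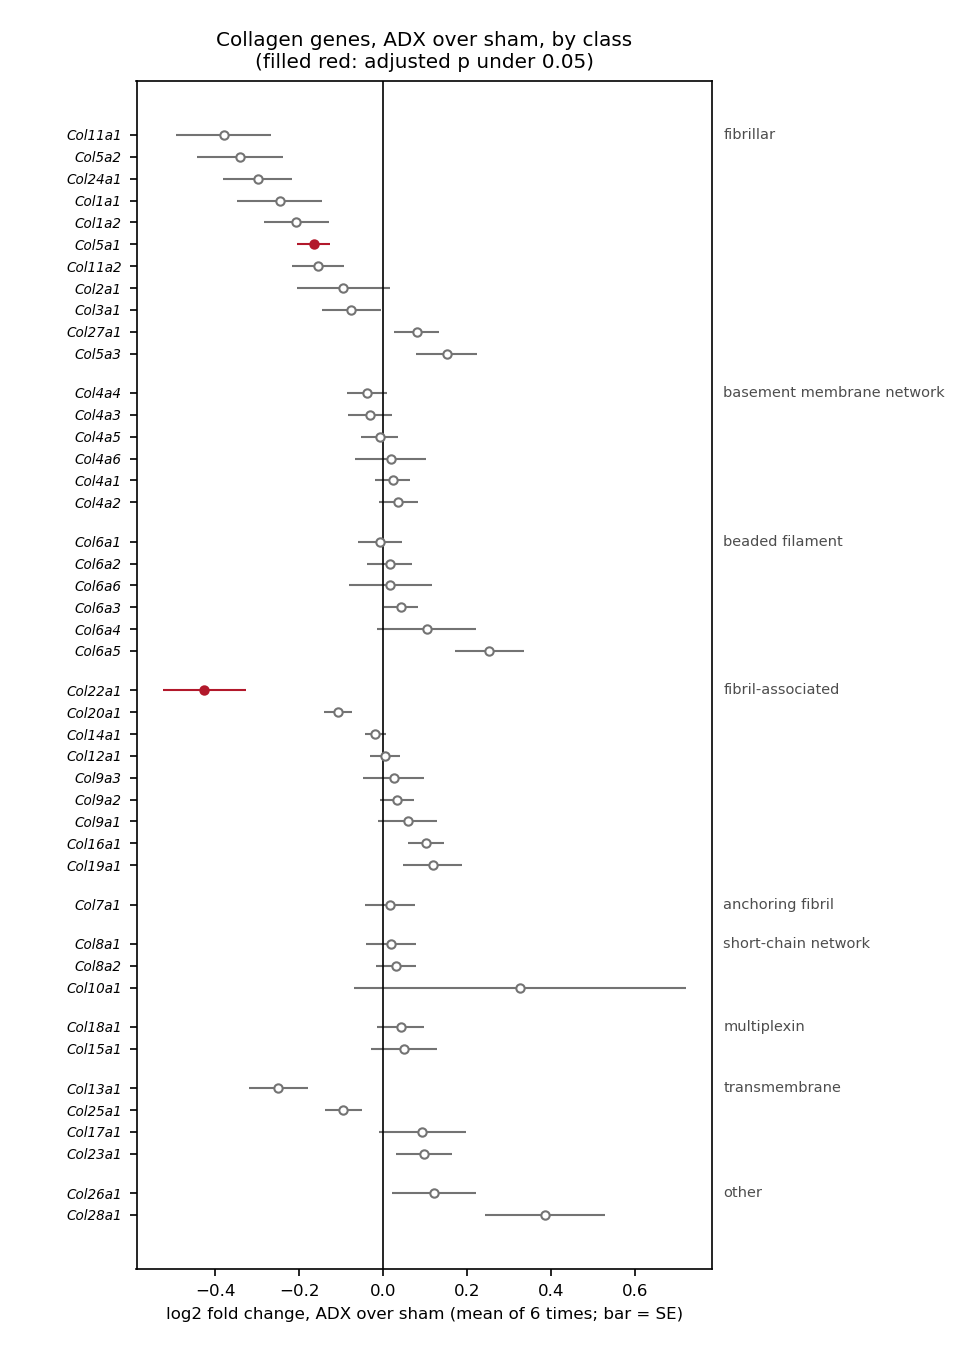
Log2 fold change of ADX over sham over the mean of 6 times (horizontal axis) for the 44 collagen genes, grouped by class from top to bottom; points are edgeR estimates from 36 libraries, bars are SE, and filled red points passed an adjusted p of 0.05. Col22a1 (-0.43) and Col5a1 (-0.17) are filled, 9 of the 11 fibrillar genes lie left of 0, and the type IV genes lie between -0.04 and 0.04.

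Genes outside the fibrillar class were mostly near 0. The 6 type IV genes had log2 fold changes between -0.04 and 0.04, and 26 of the 44 genes lay within 0.1 of 0. Col13a1, a transmembrane chain of the neuromuscular junction, had -0.25 ± 0.07 (edgeR adjusted p = 0.0801). The highest values belonged to Col28a1, a chain of peripheral nerve, with 0.39 ± 0.14, to Col10a1 with 0.33 ± 0.39 and to the type VI gene Col6a5 with 0.25 ± 0.08, none past the threshold (edgeR adjusted p = 0.172, 0.751 and 0.121). Col6a5 averaged 42.9 ± 8.56 CPM in ADX and 36.0 ± 6.33 CPM in sham (SD, n = 18 each), and its mean was higher in ADX at all 6 times, as were those of Col16a1 and Col23a1. Col10a1 lies within Nt5dc1 on the opposite strand and Col10a1 libraries ranged from 0.14 to 4.18 CPM in ADX and from 0.077 to 7.15 CPM in sham, so its values are uncertain. In all, 18 of the 44 genes overlap an annotated gene on the opposite strand and 15 one on the same strand, and no source used here gives the strand setting of the counting. At an unadjusted p of 0.05, 15 of the 44 passed, 11 of them lower in ADX, against 15.6% and 7.39% of all tested genes.

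At single times the groups hold 3 libraries each, and 0 of the 44 genes passed in edgeR at any of the 6 times. Over all tested genes 0.00443% passed at CT20 and 0% at each of the other times. DESeq2 called 5 genes at CT20, all lower in ADX (Col5a1, Col5a2, Col13a1, Col22a1 and Col24a1), and 0 at the other 5 times. The share of all tested genes that DESeq2 called is not given here, and the edgeR share does not stand in for it. Genes with an unadjusted p under 0.05 in edgeR numbered 5 of 44 at CT04 (9.3% of all tested genes), 0 at CT08 (4.28%), 3 at CT12 (5.41%), 3 at CT16 (7.95%), 12 at CT20 (7.49%) and 8 at CT24 (5.74%). At CT20, 11 of the 12 were lower in ADX (3.09% of all tested genes), and at CT24 all 8 were (2.9%). At CT04, CT12 and CT16, 1 gene each was lower in ADX (5.39, 3.12 and 3.92% of all tested genes), and at CT08 0 were (1.65%). Genes with a negative log2 fold change, whatever their p, numbered 14 of 44 at CT04 (50.5% of all tested genes), 26 at CT08 (52%), 16 at CT12 (48.8%), 21 at CT16 (47.5%), 29 at CT20 (50.3%) and 34 at CT24 (47.5%). All 11 fibrillar genes were negative at CT20, with a median of -0.45, and 9 were at CT24, with a median of -0.35. Without sham CT20 replicates 2 and 3, 0 of the 44 genes had an unadjusted p under 0.05 at CT20 (3.94% of all genes tested in that fit), 15 of the 44 and 5 of the 11 fibrillar genes were negative, and the fibrillar median was 0.04.

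At CT20 the libraries within each status were unlike one another. Col22a1 had 33.7, 51.1 and 38.7 CPM in the ADX libraries, against 49.8, 97.1 and 98.4 CPM in the sham libraries. Col1a1 had 656, 1013 and 832 CPM in the ADX libraries, against 984, 1866 and 1606 CPM in the sham libraries. Col11a1 had 151, 281 and 151 CPM in the ADX libraries, against 221, 511 and 404 CPM in the sham libraries. In each gene sham replicates 2 and 3 were the highest of all 36 libraries, while sham replicate 1 lay within the range of the 3 ADX libraries. The log2 fold change at CT20 was -0.99 ± 0.24 for Col22a1, -0.96 ± 0.28 for Col11a1 and -0.83 ± 0.25 for Col1a1. With sham replicates 2 and 3 left out, and the remaining sham library assumed to vary like the other groups, the values at CT20 were -0.27 for Col22a1, -0.19 for Col11a1 and -0.24 for Col1a1, and 6 of the 11 fibrillar genes were positive, Col2a1 most with 0.31. With sham replicate 1 left out instead, 9 genes passed, all lower in ADX, and the share of all tested genes called in that fit is not given here.

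CT24 showed a tighter pattern. Col1a1 had 609, 569 and 579.6 CPM in the ADX libraries, against 844, 838 and 821 CPM in the sham libraries. Col22a1 had 29.7, 28.9 and 31.4 CPM in the ADX libraries, against 48.0, 51.1 and 46.7 CPM in the sham libraries. The replicates of each status lay close together and the statuses did not overlap. All 3 ADX libraries lay below all 3 sham libraries for 13 of the 44 genes, against 6.01% of all tested genes, and for 9 of the 11 fibrillar genes. The 13 were Col1a1, Col1a2, Col2a1, Col3a1, Col5a1, Col5a2, Col6a4, Col11a1, Col11a2, Col13a1, Col22a1, Col24a1 and Col25a1. The reverse order, all ADX above all sham, held for 0 of the 44, against 6.03% of all tested genes. The log2 fold change at CT24 was -0.51 ± 0.25 for Col1a1 and -0.69 ± 0.24 for Col22a1, and the edgeR adjusted p was 0.864 for Col1a1 and 0.812 for Col22a1.

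Osteoblast scores at CT24 were likewise separated, at -0.33, -0.37 and -0.21 in the ADX libraries and at 0.09, 0.11 and 0.19 in the sham libraries. Other lists were separated too. Osteoclast scores were -0.07, -0.09 and -0.37 in the ADX libraries and 0.46, 0.69 and 0.07 in the sham libraries. Neutrophil scores were 0.00, 0.26 and 0.33 in ADX and 0.57, 0.41 and 0.40 in sham. Skeletal muscle scores were lower, and B lymphocyte and hair cell scores higher, in all 3 ADX libraries than in any sham library. ADX CT24 replicates 1 and 2 also held Gh over 50 CPM. The part of any of these in the CT24 pattern was not tested. At the other times 0 to 3 of the 44 genes had all ADX libraries below all sham libraries, against 3.92 to 8.46% of all tested genes. All ADX above all sham held for 6 genes at CT04 (8.07% of all), among them Col4a1, Col4a2 and Col27a1, and for 6 at CT16 (7.1%), again with Col27a1.

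**Figure D2:**
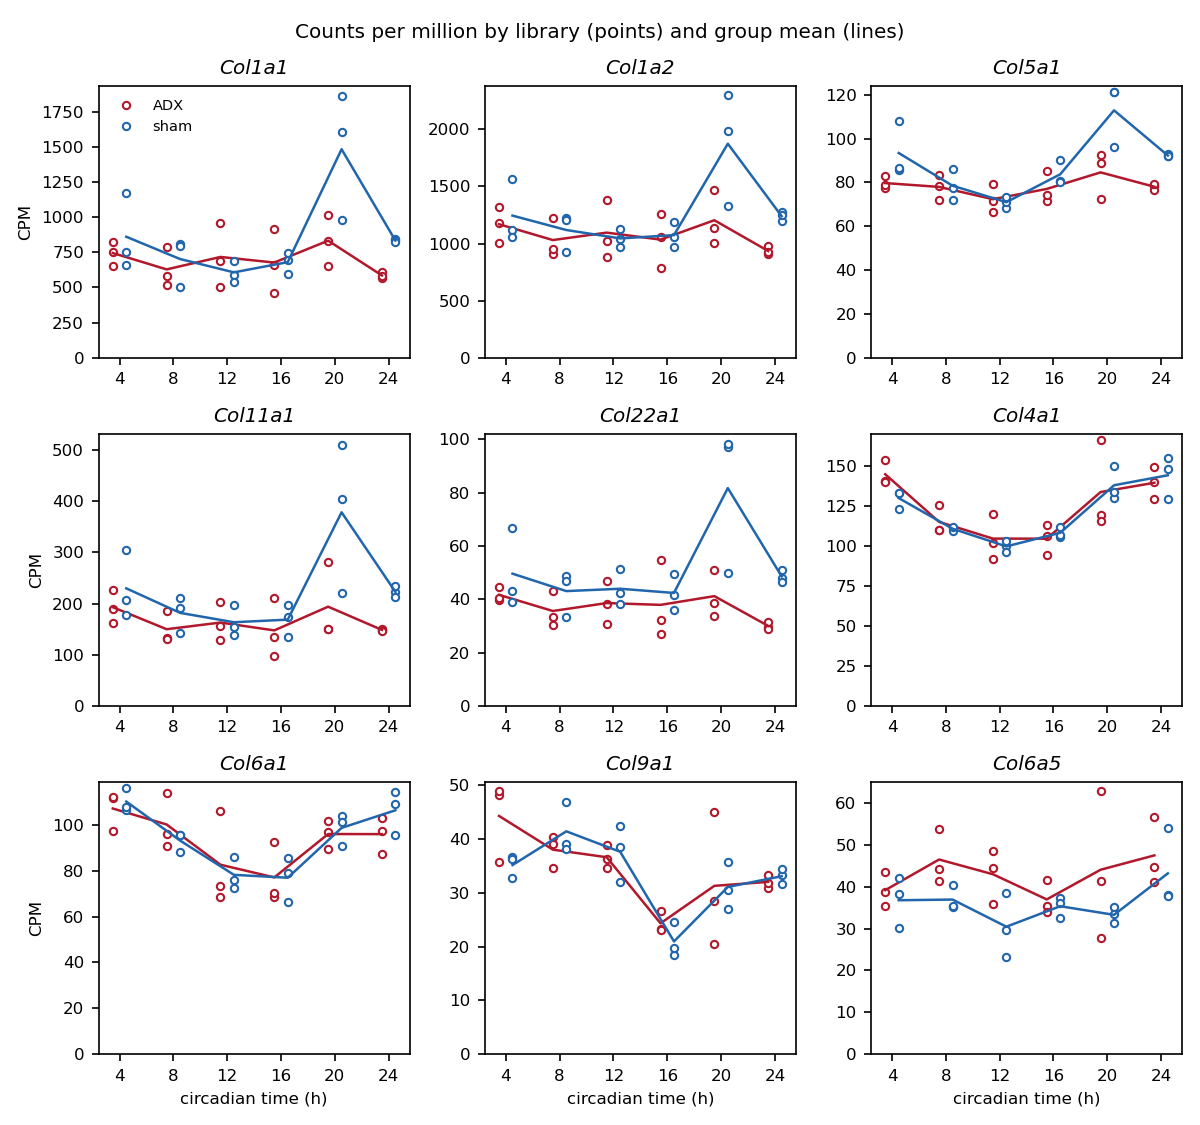
CPM (vertical axis, from 0) against circadian time in hours for 9 collagen genes; points are single libraries, ADX in red drawn left of sham in blue, and lines join the means of 3 libraries. Sham CT20 replicates 2 and 3 stand highest for Col1a1 (1866 and 1606 CPM), Col1a2, Col5a1, Col11a1 and Col22a1, and the ADX and sham lines of Col4a1, Col6a1 and Col9a1 run close together with a trough at CT12 or CT16.

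Rhythm was tested with a cosine of 24 h fitted per status, and its size is given as the fitted peak-to-trough difference on the log2 scale. In ADX 5 of the 44 genes passed (9.4% of all tested genes passed) and in sham 15 passed (3628 of all 22556 tested genes, 16%). A rhythm shared by both statuses was called for 17 (32.5% of all). All 5 genes called in ADX, Col4a1, Col4a2, Col6a1, Col9a1 and Col27a1, were also called in sham. A difference in rhythm between ADX and sham was called for 0 genes by edgeR and 0 by DESeq2, 0% of all tested genes passing in edgeR, and 5 of the 44 had an unadjusted p under 0.05 (3.57% of all): Col1a1, Col5a1, Col10a1, Col13a1 and Col20a1. The larger number of calls in sham is therefore not shown to be a difference between the statuses. Sham CT20 replicates 2 and 3, included in these fits, stood above all 34 other libraries for Col1a1, Col5a1, Col13a1 and Col20a1. When the 6 times were compared without a cosine, 5 of the 44 genes were called in ADX (9.68% of all), 22 in sham (16%) and 24 shared (33.2%). The interaction of status and time was called for 0 genes (0% of all), with 2 of the 44 at an unadjusted p under 0.05 (4.83%).

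In ADX the basement membrane pair, Col4a1 and Col4a2, had the smallest p, while in sham the p of Col6a1 was below that of Col4a2. Col5a1 and Col20a1 were also among the stronger sham calls. With single libraries left out, their edgeR adjusted p in sham reached at most 0.0014 and 0.0012, against 0.0072 for Col4a2. Col4a1 averaged 145 ± 7.92 CPM at CT04 and 105 ± 14.2 CPM at CT12 in ADX, and 130.0 ± 5.75 CPM at CT04 and 99.8 ± 3.24 CPM at CT12 in sham (SD, n = 3 each). The highest sham mean was at CT24, with 144 ± 13.4 CPM. The fitted peak-to-trough value of Col4a1 was 0.53 ± 0.08 in ADX with a peak at 1.06 h and 0.55 ± 0.08 in sham with a peak at 23.8 h (edgeR adjusted p = 0.000256 in ADX and 5.1e-05 in sham). Col4a2 had 0.50 ± 0.09 in ADX with a peak at 2.44 h and 0.46 ± 0.09 in sham with a peak at 0.98 h (edgeR adjusted p = 0.0018 in ADX and 0.0021 in sham). Leaving out any 1 of the 36 libraries kept both calls in ADX and in sham. The other 4 type IV chains, Col4a3 to Col4a6, were not called in either status.

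Of the 6 type VI chains, which form filaments beside basement membranes, Col6a1 and Col6a2 peaked near the same hours. Col6a1 had a peak-to-trough value of 0.42 ± 0.10 in ADX with a peak at 3.15 h and 0.56 ± 0.10 in sham with a peak at 1.77 h (edgeR adjusted p = 0.0223 in ADX and 0.0010 in sham). Its partner Col6a2 had 0.35 ± 0.11 in ADX (edgeR adjusted p = 0.0841) and 0.51 ± 0.11 in sham (edgeR adjusted p = 0.0048). Col6a3, the longest of the chains that assemble with them, peaked earlier, at 19.5 h in ADX and 20.7 h in sham. Col6a4, Col6a5 and Col6a6 were called in neither status.

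Col9a1 and Col27a1 peaked between 5 and 7 h. Among other chains of cartilage, Col2a1 and Col11a2 were called in neither status, and Col11a1 was called in sham with a peak at 22.3 h. Col9a2 and Col9a3 were called in neither status alone, but both had a shared rhythm peaking between 5 and 11 h. With single libraries left out, that shared call held in 36 of the 36 fits for Col9a2 and in 19 for Col9a3. Col9a1, a type IX chain, averaged 44.3 ± 7.48 CPM at CT04 and 24.33 ± 2.04 CPM at CT16 in ADX, and 41.4 ± 4.83 CPM at CT08 and 20.96 ± 3.26 CPM at CT16 in sham (SD, n = 3 each). Its peak-to-trough value was 0.65 ± 0.17 in ADX with a peak at 5.62 h and 0.64 ± 0.17 in sham with a peak at 6.19 h (edgeR adjusted p = 0.0327 in ADX and 0.0286 in sham). Col27a1 had 0.47 ± 0.13 in both, with peaks at 5.38 h in ADX and 6.68 h in sham (edgeR adjusted p = 0.0398 in ADX and 0.0264 in sham). Without the 3 muscle-high libraries neither Col9a1 nor Col27a1 was called in ADX, and Col16a1 was added. When single libraries were left out, Col9a1 was called in ADX in 30 of the 36 fits and Col27a1 in 29. Col16a1, a fibril-associated chain of many connective tissues, had 0.30 ± 0.09 in ADX with a peak at 7.33 h and 0.26 ± 0.09 in sham with a peak at 7.39 h, past the threshold in neither status alone (edgeR adjusted p = 0.0685 in ADX and 0.0948 in sham).

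Col1a1, Col1a2, Col5a1, Col5a2 and Col11a1 were called in sham with peaks between 21.7 and 22.4 h. Col22a1 (edgeR adjusted p = 0.0695) and Col24a1 (0.237), whose levels followed the osteoblast score as closely, were not called in sham. Col1a1 had a peak-to-trough value of 0.16 ± 0.24 in ADX (edgeR adjusted p = 0.893) and 0.95 ± 0.24 in sham with a peak at 22.0 h (edgeR adjusted p = 0.0147). Col11a1 had 0.18 ± 0.26 in ADX and 0.93 ± 0.25 in sham with a peak at 22.3 h, and Col5a2 had 0.11 ± 0.24 in ADX and 0.83 ± 0.24 in sham. Without sham CT20 replicates 2 and 3, Col1a1 (edgeR adjusted p = 0.145), Col1a2 (0.315), Col5a2 (0.163), Col6a3 (0.0791) and Col11a1 (0.146) no longer passed in sham, 10 of the 15 did and Col16a1 was added. Col5a1 kept its call, with an edgeR adjusted p of 0.0029, and its full-data peak-to-trough value was 0.13 ± 0.09 in ADX and 0.53 ± 0.09 in sham. For Col5a1 the unadjusted p of the difference in rhythm was 0.0139 (edgeR adjusted p = 0.9997), and without the 2 libraries it was 0.0710. Col20a1, a small-amplitude fibril-associated gene, had 0.20 ± 0.07 in ADX with a peak at 21.8 h and 0.42 ± 0.07 in sham with a peak at 19.98 h, and kept its call in sham whichever library was left out. Col12a1, a fibril-associated chain of tendon and ligament, had 0.22 ± 0.08 in ADX with a peak at 23.7 h and 0.36 ± 0.08 in sham with a peak at 22.3 h (edgeR adjusted p = 0.125 in ADX and 0.0038 in sham). Col13a1 had 0.16 ± 0.17 in ADX and 0.52 ± 0.16 in sham, and Col17a1, the transmembrane chain of hemidesmosomes, had 0.08 ± 0.20 in ADX and 0.66 ± 0.20 in sham, with no call in either.

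Among the 15 genes called in sham, 12 had a smaller fitted peak-to-trough value in ADX than in sham. Since those genes were chosen by their sham fit, this count is a description only, and over all 44 genes the number was 30. Of the 17 genes with a shared rhythm, 11 peaked between 19 and 4 h, 5 between 5 and 11 h (Col9a1, Col9a2, Col9a3, Col16a1 and Col27a1) and Col6a4 at 18.9 h.

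**Figure D3:**
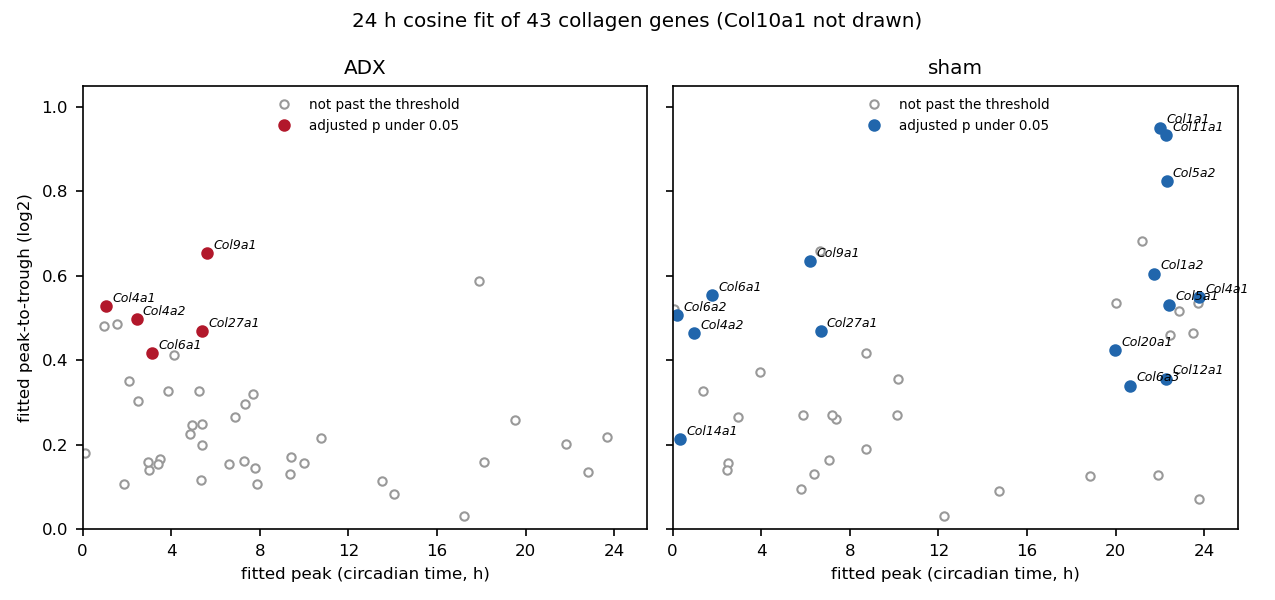
Fitted peak-to-trough value (log2, vertical axis) against fitted peak hour (circadian time) for 43 collagen genes in ADX (left panel) and sham (right panel); filled named points passed an adjusted p of 0.05, open points did not, and Col10a1 is not drawn because its fitted value in sham, 2.06, exceeds the axis. The 5 filled genes in ADX peak between 1.06 and 5.62 h, and the sham panel adds late-peaking fibrillar genes with values up to 0.95.

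Within groups the collagen genes varied together in a few blocks. The measure is the Pearson correlation of deviations from the 12 group means of log2(CPM + 0.5) over 36 libraries, which share library depth and tissue makeup, so it is a description. Over all 946 pairs the median was 0.26, with a range of -0.67 to 0.99. Col5a2 and Col11a1 reached 0.99, Col1a1 and Col1a2 0.98 (Spearman's rho 0.96), Col6a1 and Col6a2 0.95 and Col4a1 and Col4a2 0.93. Without the sham CT20 group the same pairs had 0.99, 0.97, 0.95 and 0.92 over 33 libraries. Lower values were found for Col4a3 with Col4a4 (0.78), Col4a5 with Col4a6 (0.62), Col8a1 with Col8a2 (0.45) and the type IX pairs (0.42 to 0.62).

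Some partners by sequence were not the closest by covariation. Type V assembles from Col5a1 and Col5a2, which had 0.76, and type XI from Col11a1 and Col11a2, which had 0.83, whereas Col5a2 and Col11a1, which mix in hybrid fibrils, varied almost as one. Among all tested genes the 4 most like Col1a1 were Col1a2 (0.98), Col5a2 (0.96), Col22a1 (0.96) and Col11a1 (0.94), followed by Prss35 (0.92) and the bone genes Ibsp (0.91) and Ifitm5 (0.91). The 5 most like Col4a1 were Col4a2 (0.93), Fbn1, which encodes fibrillin (0.82), Hspg2, the basement membrane proteoglycan perlecan (0.79), Col15a1 (0.79) and the laminin gene Lama4 (0.78). With the osteoblast score the correlation was 0.88 for Col1a1, 0.91 for Col5a2, 0.90 for Col22a1, 0.91 for Col24a1 and 0.67 for Col5a1, against 0.25 for Col6a1 and 0.45 for Col4a1. Col2a1 had 0.82 with the osteoblast score and 0.63 with the chondrocyte score. With the erythroid score the correlation was -0.59 for Col4a1, -0.56 for Col2a1 and -0.75 for Col8a1. Without the sham CT20 group the correlation with the osteoblast score was 0.87 for Col1a1, 0.88 for Col22a1 and 0.57 for Col5a1. With the chondrocyte score, over all libraries, the correlation was 0.80 for Col4a3, 0.79 for Col8a1 and 0.69 for Col27a1.

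**Figure D4:**
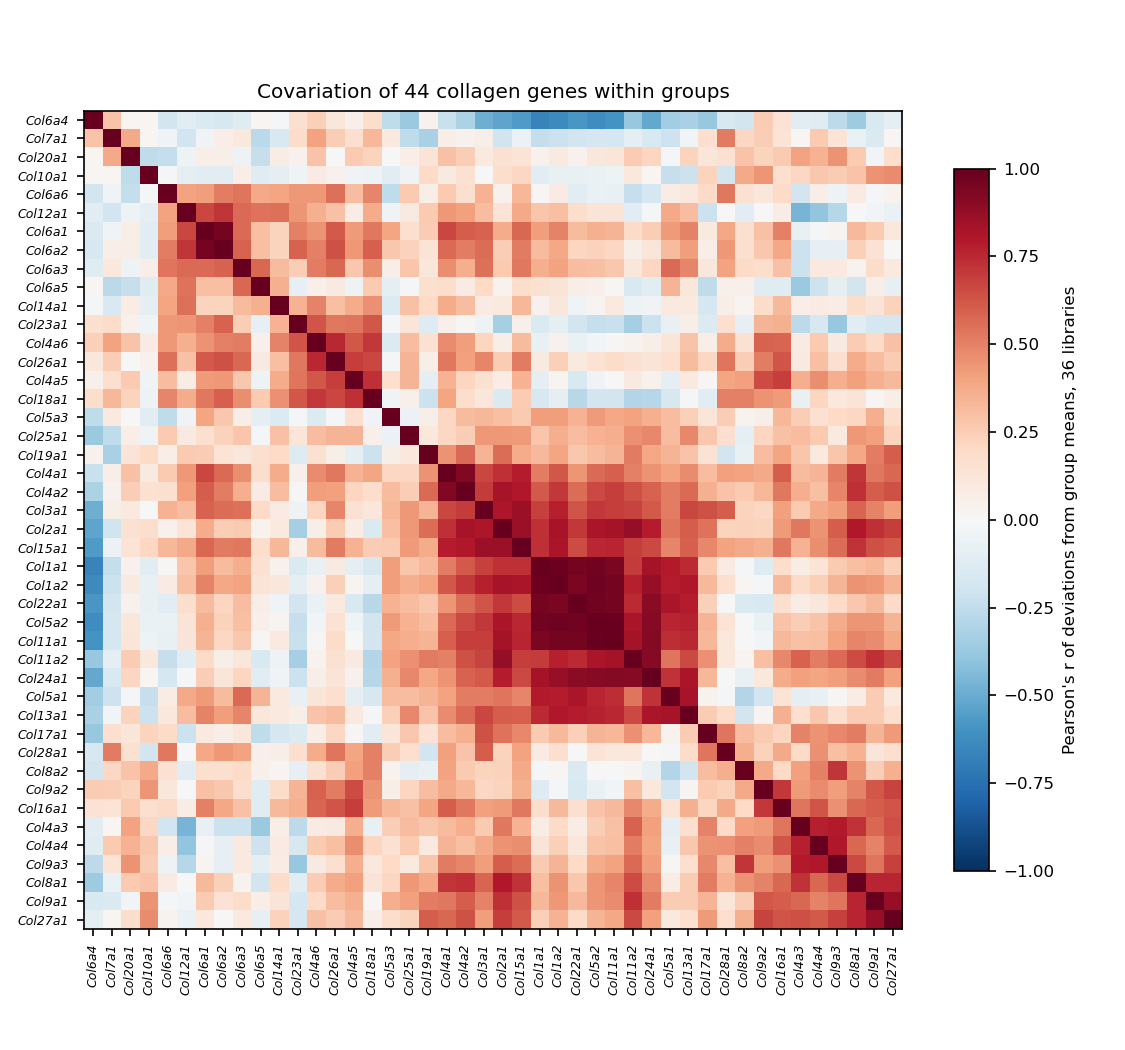
Pearson correlation of deviations from group means (colour, red positive and blue negative) between all pairs of the 44 collagen genes over 36 libraries, with genes ordered by average-linkage clustering. The darkest block joins Col1a1, Col1a2, Col22a1, Col5a2 and Col11a1, with pairs up to 0.99, and smaller blocks join Col6a1 with Col6a2 (0.95) and Col4a1 with Col4a2 (0.93).

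**Figure D5:**
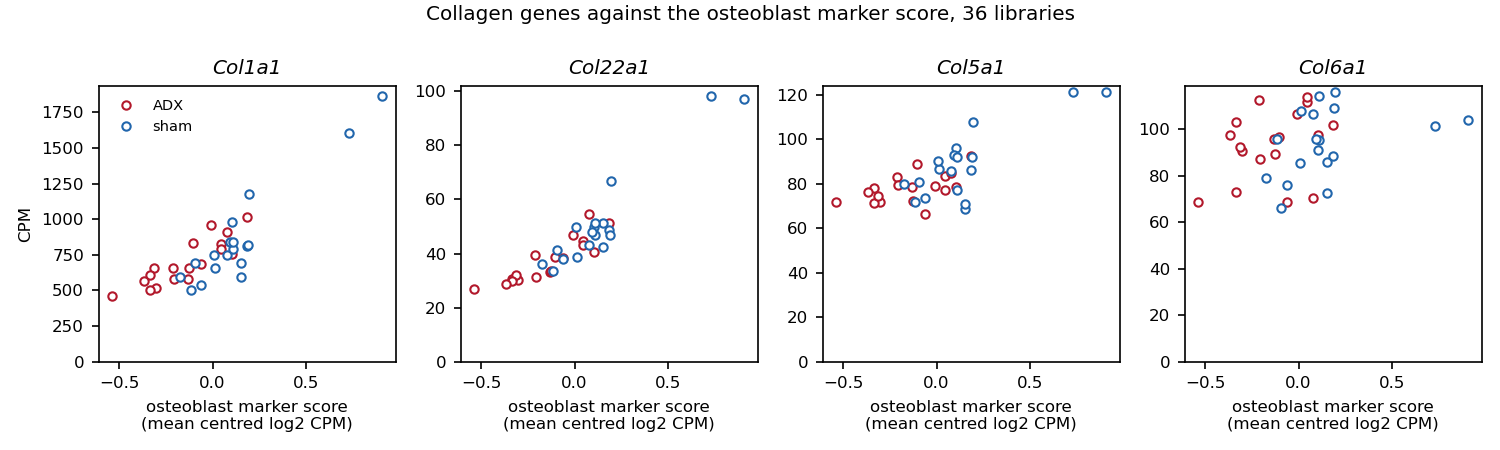
CPM of 4 collagen genes (vertical axes, from 0) against the osteoblast marker score, the mean of centred log2 CPM of 10 markers, in 18 ADX (red) and 18 sham (blue) libraries. The 2 sham libraries at scores of 0.91 and 0.73 are sham CT20 replicates 2 and 3, which are highest for Col1a1, Col22a1 and Col5a1 and lie among the other libraries for Col6a1.

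Among the ratios of partner chains given here, taken per kilobase, those of the type XI and type V pairs differed most between statuses in proportion. Col4a1 over Col4a2 was 1.41 ± 0.08 in ADX and 1.42 ± 0.08 in sham, and Col6a1 over Col6a2 was 1.19 ± 0.06 in ADX and 1.21 ± 0.09 in sham (SD, n = 18 each). Col1a1 over Col1a2 was 0.58 ± 0.04 in ADX and 0.60 ± 0.07 in sham, and Col9a1 over Col9a2 was 0.19 ± 0.04 in ADX and 0.18 ± 0.03 in sham. Col11a1 over Col11a2 was 0.16 ± 0.02 in ADX and 0.19 ± 0.05 in sham. Col5a1 over Col5a2 was 0.40 ± 0.07 in ADX and 0.36 ± 0.06 in sham. These SDs describe the spread of libraries, not the uncertainty of a difference between means.

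Genes that make and remodel collagen were counted by list. Of 20 genes for chain modification and folding, 2 passed in the mean comparison, both lower in ADX, with 15 negative values and a median log2 fold change of -0.06. Over all tested genes 0.718% passed, 0.372% lower in ADX, and 49.3% were negative. They were Plod2 (-0.19 ± 0.04; edgeR adjusted p = 0.0372) and Plod1 (-0.10 ± 0.02; edgeR adjusted p = 0.0412), which hydroxylate lysine. Of 5 cross-linking genes, the lysyl oxidases Lox (-0.20 ± 0.05; edgeR adjusted p = 0.0396) and Loxl2 (-0.41 ± 0.10; edgeR adjusted p = 0.0429) passed, both lower in ADX. Of 12 degradation genes, Fap, a fibroblast surface protease (-0.26 ± 0.05; edgeR adjusted p = 0.0074), and Mmp8, the neutrophil collagenase (-0.25 ± 0.06; edgeR adjusted p = 0.0490), passed, both lower in ADX. The part of the neutrophil markers, which were all negative, in the Mmp8 value was not tested. Without sham CT20 replicates 2 and 3, 0 genes of these lists passed in edgeR, with an adjusted p of 0.148 for Plod2, 0.164 for Plod1, 0.165 for Lox, 0.179 for Loxl2, 0.132 for Mmp8 and 0.0516 for Fap. In that fit 5 of the 20 modification genes, 3 of the 5 cross-linking genes and 4 of the 12 degradation genes had an unadjusted p under 0.05, against 13.7% of all genes tested.

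The 14 secretion and processing genes, 12 fibril-binding proteoglycans and glycoproteins, 10 receptors and 6 transcription factors had 0 called genes each in edgeR, with 6, 3, 4 and 2 of them at an unadjusted p under 0.05 (15.6% of all tested genes). The medians of these 4 lists were -0.04, 0.02, -0.05 and -0.07, against 0.00 over all tested genes. Dcn, the proteoglycan decorin that binds type I fibrils, averaged 625 ± 119 CPM in ADX and 544 ± 49.5 CPM in sham (SD, n = 18 each) and was higher in ADX at all 6 times (log2 fold change 0.19 ± 0.06, edgeR adjusted p = 0.103). The transcription factor list shares Sp7 with the osteoblast markers.

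Rhythm was then counted in the same lists, over all 36 libraries. The dependence of these list rhythms on sham CT20 replicates 2 and 3 was not tested. Of the 20 genes for chain modification and folding, 8 were called in ADX (9.4% of all tested genes), 10 in sham (16%) and 12 shared (32.5%). Serpinh1, the collagen chaperone of the endoplasmic reticulum, had a peak-to-trough value of 0.96 in ADX with a peak at 19.6 h and 1.39 in sham with a peak at 19.32 h (edgeR adjusted p = 0.0029 in ADX and 8.5e-06 in sham). P4ha1, a subunit of prolyl 4-hydroxylase, had 0.70 in ADX with a peak at 18.7 h and 0.94 in sham with a peak at 18.4 h. Of the 5 cross-linking genes 3 were called in ADX, 4 in sham and 5 shared, among them Loxl4 with 0.84 in ADX and 1.10 in sham. Lox peaked at 0.93 h in ADX and 23.4 h in sham. Against the same shares of all tested genes, the degradation list had 2 called in ADX, 7 in sham and 6 shared of 12, the receptors 1, 4 and 4 of 10, the secretion genes 0, 1 and 3 of 14, the fibril-binding genes 0, 1 and 1 of 12 and the transcription factors 0, 1 and 3 of 6.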

How the data were processed

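Per the labels, cochlear total RNA went into stranded mRNA libraries sequenced as single reads. The authors deposited 1 table of raw counts per gene and library, with whole numbers and no normalization, and a gene length that was used here only for a second ranking of levels. The submitters' processing notes name STAR 2.4.0i and mm10, while no source used here gives the counter, annotation or strand setting. In 30 of the 36 column names the time was 1 h earlier than in the labels, and columns were matched on status, replicate and the only labelled time within 1 h. GENCODE M21 (GRCm38) matched 37693 IDs (96.6%). The table had 0 columns of other samples.

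In R 4.3.3, edgeR 4.0.16 (TMM, filterByExpr, glmQLFit, glmQLFTest) was fitted to all 36 libraries and tested 22556 genes, all 44 collagen genes among them. The 16461 genes left out held 0.0779% of counts. A model of 12 group means (24 residual degrees of freedom) gave the comparisons of ADX with sham, and a cosine and sine of 24 h per status (30 residual degrees of freedom) gave the rhythm tests. Benjamini-Hochberg adjustment ran over all tested genes, with a threshold of 0.05. CPM were computed here with TMM scaling. Library totals ran from 18999408 to 28995197 counts, and the collagen gene with the lowest mean count, Col10a1, had 36.4. The scripts were tested on simulated counts.

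Values are given for genes past a threshold, the 3 highest and 3 lowest fold changes, the 6 smallest p of each rhythm test, the 8 highest levels per kilobase, chains that assemble together and called genes of the pathway lists, and for further examples chosen after their values were seen. The members, classes and lists were chosen with earlier results of these data known. Alternatives were DESeq2 1.42.0, edgeR with DESeq2 size factors, all genes without a filter, a replicate block, a test of any difference between times, and fits without muscle-high, Gh-high or single libraries. A fit without sham CT20 replicates 2 and 3, and one with the hours written in the column names, were chosen after seeing the data. Promoter windows were RefSeq's (GRCm38.p6).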

Additional observations from a re-analysis of the deposited data

How the results depend on the processing

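Of the counts of collagen genes called, those at CT04, CT08, CT12, CT16 and CT24 and of the difference in rhythm stayed at 0 under each alternative run for them. In the mean comparison, where edgeR called 2, DESeq2 called 6, all lower in ADX, and 0 were called without the 3 muscle-high libraries, without the 5 libraries with Gh over 50 CPM and without sham CT20 replicates 2 and 3. The adjusted p in these 3 fits was 0.0786, 0.255 and 0.185 for Col22a1 and 0.0751, 0.283 and 0.182 for Col5a1. Leaving out single libraries gave 0 to 6 calls, 6 without sham CT20 replicate 1, 4 without ADX CT16 replicate 3 or ADX CT20 replicate 2, and 0 in 18 of the 36 fits, 7 of these without an ADX library and 11 without a sham library. At CT20 DESeq2 called 5, and leaving out single libraries gave 0 to 9 calls, 9 without sham CT20 replicate 1 and 2 without ADX CT08 replicate 1. The count rhythmic in ADX lay between 2 and 8 when single libraries were left out (2 without ADX CT04 replicate 1, ADX CT16 replicate 1 or ADX CT16 replicate 3, 3 without ADX CT04 replicate 3, 8 without ADX CT20 replicate 2 or ADX CT24 replicate 3), in sham between 10 and 17, and shared between 14 and 20. The median log2 fold change lay between -0.01 and 0.03. The cause of these shifts was not tested, except that left-out libraries leave fewer samples. For most of these fits, DESeq2 included, the share of all tested genes called is not given here.

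The replicate numbers did not pair the samples: over 18 same-number pairs the correlation of deviations ran from -0.21 to 0.17, and 3 exceeded 0.1. With the replicate number as a block, 2 genes were called in the mean comparison, 14 in sham, 5 in ADX and 17 shared. Any difference between the 6 times was called for 5 genes in ADX and 22 in sham, and the times of the column names gave 4 in ADX and 16 in sham.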
